A study of Mus musculus with 12 samples.

Results

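Shared intergenic TET2 sites are stretches of DNA outside protein-coding genes that were called as bound by TET2 in both cell types of the study. They were taken from 1 list of binding sites per cell type: sites of the acute myeloid leukemia (AML) culture that shared at least 1 bp with a site of the immortalized myeloid culture were kept. Their midpoint had to lie outside all protein-coding genes, over 1 kb and at most 100 kb from the nearest gene coordinate, which is the start or end of a gene in the annotation. This gave 1824 sites of the 6777 merged AML sites on chromosomes 1 to 19 (26.9%, exact Clopper-Pearson 95% interval 25.9 to 28.0). In the myeloid list, 1820 of the 18532 merged sites had their own midpoint in the same zone and shared at least 1 bp with an AML site. The members were chosen by presence in both deposited lists and by position, so these counts are descriptions and were not tested.

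The lists come from chromatin immunoprecipitation sequencing (ChIP-seq), which recovers the DNA bound by a protein with an antibody, here one against the N-terminal part of TET2. The myeloid culture was made of mouse hematopoietic cells carrying the retroviral transgene MigR1-AML1-ETO, with the genotype Tet2fl/fl; AML1-ETO in the group labelled WT and Tet2-/-; AML1-ETO in the knockout group. The AML culture had the genotype Npm1+/cA; Fl3+/ITD in the group labelled WT, the same with Tet2-/- in the knockout group, and no transgene. Each group had 2 TET2 libraries, and each cell type had 1 input and 1 IgG library of the WT genotype, 12 libraries in all. Stem cell factor at 50 ng/ml was in every culture medium, as were IL-3 and IL-6 at 10 ng/ml. The AML1-ETO control cells therefore carry a leukemia fusion protein, and the AML control cells carry both leukemia mutations. Whether separate cultures or animals stand behind the 2 libraries of a group, and how Tet2 was deleted, is not given in the labels. Chromatin was crosslinked with 2 mM disuccinimidyl glutarate and 1% formaldehyde, a pair of agents that fixes protein to protein as well as protein to DNA.

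TET2 is a dioxygenase that oxidizes 5-methylcytosine in DNA, a step toward loss of DNA methylation, and it is often mutated in human myeloid malignancies. It lacks the CXXC domain by which its relatives bind CpG-rich DNA, and it is thought to reach DNA largely through other proteins. Enhancers are stretches of DNA, often between genes, that bind transcription factors and act on promoters at a distance, and in blood cells factors such as RUNX1, PU.1 and the C/EBP proteins occupy many of them. No chromatin mark, RNA level or DNA methylation was measured in these files, so the sites are described by position and not as enhancers.

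The deposited lists hold a chromosome, a start and an end for each site, with no score, read count or value per library. The depth behind a site is therefore unknown, no replicate error exists, and no test over samples could be made for any comparison below. Intervals cover counting error over sites only, and neighbouring sites are not independent. The AML list is the shorter, with 7002 deposited rows against 19706. Of the 2574 AML sites in the same intergenic zone, 1824 were shared (70.9%, 69.1 to 72.6), and 750 were AML-only. The zone held 3700 myeloid-only sites. The shared part of all other AML sites, those inside genes, at gene ends or beyond 100 kb, was 72.3% (70.9 to 73.7).

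For 36 genes of long noncoding RNAs, the promoter window itself lay inside a shared intergenic site, and these windows give the DNA sequence at some of the sites. A promoter window here runs from 250 bases before to 50 bases after an annotated start, as given by RefSeq for GRCm38.p6, which has the coordinates of mm10. Of 25748 genes with a window on chromosomes 1 to 19, these 36 were 0.14%, and in all of them the window lay whole in the AML site and in its myeloid partner. All 36 were lncRNA genes, as the rule leaves out the ends of protein-coding genes. The 6 shown were taken from the protein-coding neighbours with most shared intergenic sites, then by the smallest distance, an order set after the values were seen. They are printed in the 5′ to 3′ direction of the lncRNA with the annotated start after base 250. Capitals mark matches, on either strand, to short core motifs of blood cell factors. The core of RUNX was TGTGGT. The core of ETS factors such as PU.1 was GGAAGT. That of C/EBP was TTGCNNAA, and that of AP-1 was TGANTCA. Searched as well were AGATAA, which erythroid and progenitor zinc finger factors of the GATA family bind, and the E-box, with the letters CAGCTG. The letters of one motif do not contain those of another, but matches may overlap.
Gm34157: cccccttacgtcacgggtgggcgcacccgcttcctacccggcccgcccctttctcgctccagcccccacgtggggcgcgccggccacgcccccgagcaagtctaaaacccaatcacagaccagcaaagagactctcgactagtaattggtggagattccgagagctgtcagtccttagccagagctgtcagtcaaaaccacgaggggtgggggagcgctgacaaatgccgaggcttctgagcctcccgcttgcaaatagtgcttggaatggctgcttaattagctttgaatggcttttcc
B230208H11Rik: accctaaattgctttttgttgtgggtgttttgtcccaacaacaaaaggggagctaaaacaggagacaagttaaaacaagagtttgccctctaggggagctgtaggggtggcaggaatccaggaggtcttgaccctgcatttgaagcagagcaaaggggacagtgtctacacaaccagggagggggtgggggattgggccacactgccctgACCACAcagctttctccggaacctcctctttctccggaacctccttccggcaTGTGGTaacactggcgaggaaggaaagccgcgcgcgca
Gm51474: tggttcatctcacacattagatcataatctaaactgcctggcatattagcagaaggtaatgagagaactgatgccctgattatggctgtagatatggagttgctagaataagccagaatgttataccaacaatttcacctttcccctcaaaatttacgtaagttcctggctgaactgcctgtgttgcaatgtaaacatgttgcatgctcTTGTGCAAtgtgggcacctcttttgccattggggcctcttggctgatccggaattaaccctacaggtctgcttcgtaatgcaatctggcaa
Gm41485: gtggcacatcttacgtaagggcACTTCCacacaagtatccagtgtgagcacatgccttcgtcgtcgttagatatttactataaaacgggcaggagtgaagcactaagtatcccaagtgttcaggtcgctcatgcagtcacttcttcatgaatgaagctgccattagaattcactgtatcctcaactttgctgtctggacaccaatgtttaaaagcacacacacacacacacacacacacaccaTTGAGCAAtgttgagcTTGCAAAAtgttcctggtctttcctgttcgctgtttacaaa
Gm16619: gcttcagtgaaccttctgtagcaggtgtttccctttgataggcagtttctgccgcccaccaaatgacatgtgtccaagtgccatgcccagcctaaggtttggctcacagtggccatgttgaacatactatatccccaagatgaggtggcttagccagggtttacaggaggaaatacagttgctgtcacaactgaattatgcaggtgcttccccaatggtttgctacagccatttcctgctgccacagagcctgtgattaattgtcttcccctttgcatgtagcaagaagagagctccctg
Ptgs2os2: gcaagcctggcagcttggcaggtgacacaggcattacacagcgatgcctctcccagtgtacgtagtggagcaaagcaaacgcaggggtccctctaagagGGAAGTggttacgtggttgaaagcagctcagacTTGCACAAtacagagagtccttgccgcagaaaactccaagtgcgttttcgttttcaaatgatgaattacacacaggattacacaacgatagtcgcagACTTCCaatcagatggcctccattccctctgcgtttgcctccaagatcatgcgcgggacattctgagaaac

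The printed windows differ in base composition and in the motifs found. Gm34157 (chr9:61370441-61370740, minus strand) lies in a site whose midpoint is 1.70 kb before the start of Tle3 and held 19 CpG pairs and no match to the 6 motifs. B230208H11Rik (chr10:12923078-12923377, minus strand) lies in a site 15.1 kb from Stx11 and held a RUNX match at bases 211 to 216 and another at bases 263 to 268, counted from 1 at the 5′ end. Ptgs2os2 (chr1:150164899-150165198, minus strand) lies in a site 56.8 kb from Ptgs2, which encodes the inducible cyclooxygenase, and held ETS matches at bases 100 to 105 and 230 to 235 and a C/EBP match at bases 133 to 140. Gm41485 (chr16:87612372-87612671, minus strand) lies near Map3k7cl and held an ETS match at bases 23 to 28 and C/EBP matches at bases 244 to 251 and 260 to 267. Gm51474 (chr7:26055157-26055456, plus strand), near Cyp2b13, held a C/EBP match at bases 210 to 217 and 3 CpG pairs. Gm16619 (chr16:49800279-49800578, plus strand), near Ift57, held 1 CpG pair and no match.

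Over the 36 windows, 1 per gene, 33.3% held the RUNX core (18.6 to 51.0), against 20.1% of 9291 lncRNA windows and 16.9% of all 25748 windows of the same length. The ETS core was in 38.9% (23.1 to 56.5), against 22.4% and 24.2%, and the C/EBP core was in 27.8% (14.2 to 45.2), against 11.8% and 10.9%. The AP-1 core was in 13.9% (9.46% of lncRNA windows), the GATA core in 16.7% (14.0%) and the E-box in 19.4% (17.9%). The intervals of the AP-1, GATA and E-box shares contained the lncRNA value, as did that of RUNX, while those of ETS and C/EBP lay above it. Against all windows, the interval of ETS contained the value and those of RUNX and C/EBP lay above it. The median CpG number per window was 6 (range 1 to 43), against 4 over lncRNA windows and 7 over all windows. The median GC content was 51.2%, against 48.3% and 52.7%, so both values lay above those of lncRNA windows and below those of all windows. These windows are a small and promoter-bearing part of the sites, a match is not evidence of a bound factor, and the differences were not tested.

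Both lists placed a shared intergenic site at nearly the same position. The midpoints of the AML site and of its myeloid partner lay a median of 26 bp apart (quartiles 11.5 and 49.5 bp; the highest was 973.5 bp). They were at most 50 bp apart in 1372 of 1824 sites (75.2%, 73.2 to 77.2) and at most 200 bp apart in 94.6%. Only 12 sites had midpoints over 500 bp apart. Of an AML site, a median of 97.4% lay within its myeloid partner (quartiles 93.0 and 100%), and 33.7% of the AML sites lay wholly inside it. Little of the membership thus rests on the lower limit of 1 bp. The smallest overlaps were 5 bp in a site near Mfap4 and 22 bp in a site near Fbxo28. A total of 2 sites met 2 myeloid sites each.

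**Figure D1:**
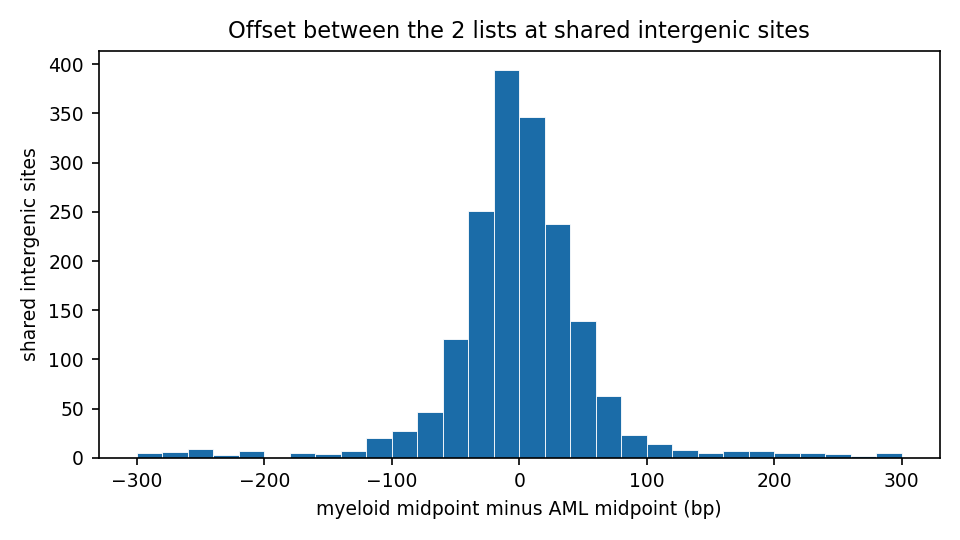
Histogram of the myeloid midpoint minus the AML midpoint (x axis, bp, bins of 20 bp) against the number of shared intergenic sites (y axis); sites beyond 300 bp are not drawn. The values gather around 0, and the median distance was 26 bp.

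Shared intergenic sites had a larger median width than unshared ones in each list. Their median width in the AML list was 730 bp (quartiles 694 and 784 bp; range 651 to 1694 bp), against 702 bp (679 and 743 bp) for the AML-only sites of the zone. The 1820 shared sites of the zone in the myeloid list had a median width of 755 bp (702 and 823 bp), against 688 bp (656 and 738 bp) for the myeloid-only sites. In the AML list 2.74% of the shared sites (2.04 to 3.598) were over 1 kb wide, against 1.20% of the AML-only sites (0.550 to 2.27). These intervals overlap, and in the myeloid list 2.73% of the myeloid-only sites (2.23 to 3.31) were over 1 kb wide. The shared AML sites inside genes, over 1 kb from a gene end, had a median of 728 bp, and those at gene ends 718 bp. A wider site has more bases with which to meet a site of the other list, so width is not fully independent of the choice, and the difference was not tested. The myeloid partner was wider than the AML site in 58.2% of the 1824 pairs (55.9 to 60.5), by a median of 17 bp over all pairs.

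**Figure D2:**
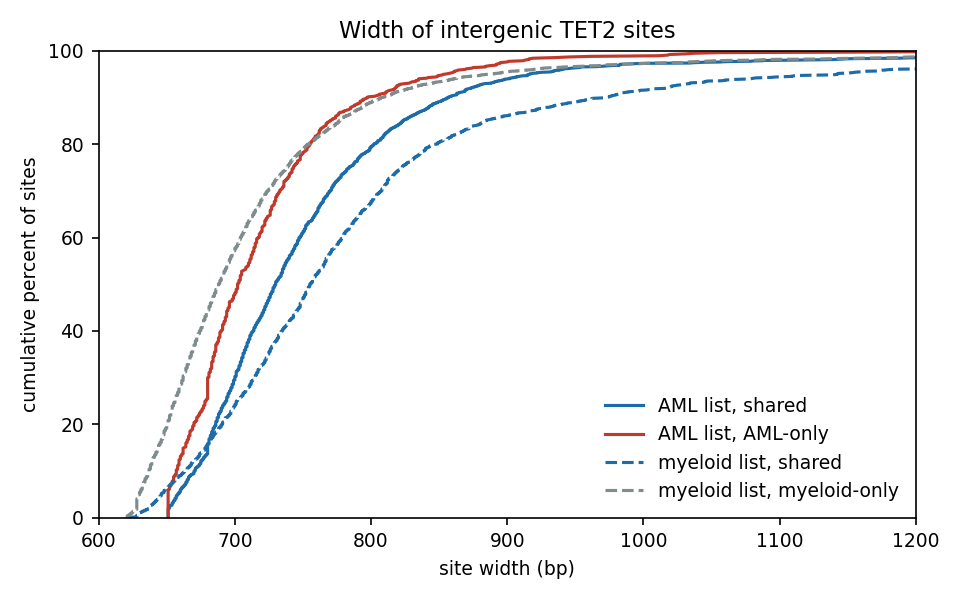
Cumulative percent of intergenic sites (y axis) at or below a width in bp (x axis), for shared and AML-only sites in the AML list (solid lines) and shared and myeloid-only sites in the myeloid list (dashed lines). Within each list the curve of the shared sites lies to the right, with medians of 730 and 755 bp against 702 and 688 bp.

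The widest shared intergenic sites were made of merged rows. The widest, 1694 bp at chr19:5571655-5573349, lay 1.24 kb past the end of Ap5b1, which encodes a subunit of an adaptor complex of vesicle transport, and was made of 3 deposited rows. The nearest gene of the next (1524 bp) was Cry1, a repressor of the circadian clock, at 81.8 kb. Then came sites nearest to Zfp281 (1522 bp, 53.0 kb away), Loxl1 (1512 bp, 12.0 kb), a crosslinking enzyme of elastic fibres, and Lrrc32 (1482 bp, 33.1 kb). Each of these 4 sites was made of 2 rows. Over all shared intergenic sites, 41 (2.25%) were merged from more than 1 row.

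The density of shared intergenic sites was lower farther from genes. The zone comprises 736 Mb of gene-free sequence, so the mean density was 2.48 sites per Mb (exact Poisson 95% interval 2.37 to 2.59). From 1 to 5 kb it was 3.70 per Mb (3.34 to 4.08; 393 sites), from 5 to 10 kb 3.04 (2.70 to 3.41; 295 sites) and from 10 to 25 kb 2.76 (2.53 to 3.02; 502 sites). From 25 to 50 kb it was 2.27 per Mb (2.05 to 2.51; 377 sites) and from 50 to 100 kb 1.39 (1.22 to 1.57; 257 sites). The intervals of neighbouring classes overlap up to 25 kb, and the value beyond 50 kb lies below the interval of each nearer class. The median distance to a gene coordinate was 15.1 kb (quartiles 5.80 and 34.1 kb). Both limits of 1 and 100 kb come from the rule.

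AML-only and myeloid-only intergenic sites were also denser close to genes. AML-only sites went from 1.31 per Mb (1.10 to 1.54) in the nearest class to 0.762 (0.641 to 0.899) in the farthest, and myeloid-only sites from 7.73 (7.21 to 8.28) to 2.88 (2.64 to 3.14). The shared part of the AML sites was 73.9% (69.9 to 77.6) from 1 to 5 kb and lay between 70.6% and 71.8% in the next 3 classes. It was 64.6% (59.7 to 69.3) from 50 to 100 kb. The width and the agreement of the midpoints varied little with distance, with class medians of 727 to 740 bp and 23.5 to 27.0 bp.

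**Figure D3:**
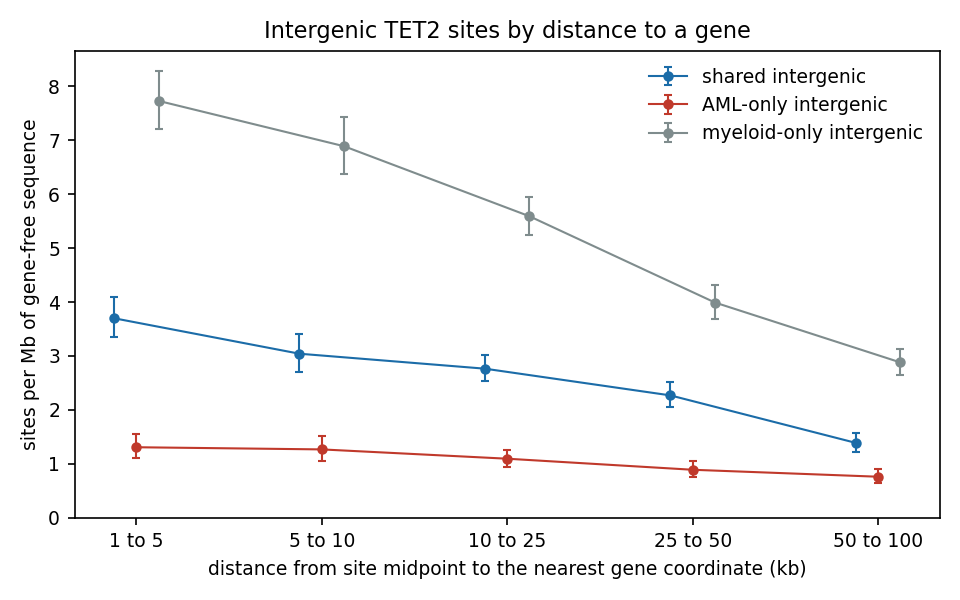
Sites per Mb of gene-free sequence (y axis) in 5 classes of distance from the site midpoint to the nearest protein-coding gene coordinate (x axis, kb), for shared, AML-only and myeloid-only intergenic sites; bars are exact Poisson 95% intervals. Shared sites go from 3.70 to 1.39 per Mb from the nearest to the farthest class.

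Just inside the near limit, sites lay 1.01 kb past the end of Jmjd6 and 1.01 kb before the start of Gabbr1. Just outside it, sites left out lay 0.978 kb from Lnpep and 0.991 kb from Igsf8. At the far limit, sites kept lay 98.8 kb from 3110040M04Rik and 99.5 kb from Kcnj16, and sites left out lay 101 kb from Pmepa1 and from Ednrb. In all, 238 shared sites outside genes lay at most 1 kb from a gene coordinate and 323 lay beyond 100 kb.

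Gaps of every length between genes held shared intergenic sites, with fewer per Mb in long gaps. In gaps of 2 to 20 kb the density was 3.93 per Mb (3.42 to 4.51; 209 sites in 198 of 7379 gaps). It was 3.58 (3.24 to 3.94) in gaps of 20 to 50 kb, 3.30 (3.00 to 3.62) in gaps of 50 to 100 kb and 2.60 (2.35 to 2.87) in gaps of 100 to 200 kb. Longer gaps had 1.30 per Mb (1.17 to 1.44; 358 sites in 252 of 1393 gaps). Among chromosomes the density ran from 1.82 per Mb on chromosome 14 (1.40 to 2.34) to 3.69 on chromosome 19 (2.87 to 4.67) and 3.62 on chromosome 11 (3.02 to 4.29). Chromosome 11 also had the highest shared part of its intergenic AML sites, at 80.2% (73.3 to 86.1), and chromosome 13 the lowest, at 63.8% (55.6 to 71.4).

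Some shared intergenic sites had another one close by. Of the 1824 sites, 428 (23.5%, 21.5 to 25.5) had another shared intergenic site within 12500 bp, and these formed 173 groups of 2 sites, 18 of 3 and 7 of 4. Within their own class, 30.4% of the 3700 myeloid-only sites (28.9 to 31.9) and 9.73% of the 750 AML-only sites (7.71 to 12.1) had another as near; the classes differ in size. Counting shared sites of any location, 28.2% (26.1 to 30.3) had another within 12500 bp. The same target sites were met by 18.9% of the AML-only (16.2 to 21.9) and 20.9% of the myeloid-only intergenic sites (19.6 to 22.3). A myeloid-only site lay within 12500 bp of 42.7% of the shared intergenic sites (40.4 to 45.0), against 25.7% of the AML-only ones (22.6 to 29.0). An AML-only site was as near in 8.22% (7.003 to 9.58), and 696 shared intergenic sites (38.2%) had no other site of either list within that distance. These differences were not tested.

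Each of the 7 groups of 4 sites lay in 1 gap between genes. The tightest, at chr17:26531420-26535756, spanned 3.64 kb between midpoints in the middle of the gap between Dusp1 and Ergic1, so that 3 of its sites were nearest to Dusp1 and the fourth to Ergic1. The second spanned 9.06 kb before the start of Ctsd, which encodes the lysosomal protease cathepsin D, at 2.56 to 11.6 kb. The third spanned 14.9 kb past the end of Nid1, the gene of the basement membrane protein nidogen, with Lyst on the other side of the gap. The others lay between Uspl1 and Alox5ap, which encodes the activating protein of 5-lipoxygenase in leukotriene synthesis, before Gnaq, beside Map4k4, and between Psma6 and Nfkbia. Nfkbia encodes an inhibitor that holds NF-kB in the cytoplasm. No AML-only site lay within any of the 7 groups, and a myeloid-only site lay within that at Nid1.

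Assigned to the gene with the nearest coordinate, the sites fell to 1449 of 20665 protein-coding genes (7.01%), of which 1158 had 1 site, 227 had 2 and 64 had 3 or more. Gene-free sequence within the limits was nearest to 18454 of the 20665 genes. The share of 7.01% counts the other genes too, as do the shares of the gene lists below. At least 2 sites were nearest to 291 genes (1.41%), which held 666 of the 1824 sites. The nearest gene is a label of position: the files hold nothing on which gene a site acts on. F13a1 and Map4k4 had most, with 6 sites each, followed by Gnaq with 5. Another 12 genes had 4 sites each: 4930512M02Rik, Cebpb, Cnih3, Ctsd, Dusp1, Nid1, P4ha2, Pag1, Stx11, Tank, Tle3 and Tmem170b.

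F13a1 encodes the A chain of coagulation factor XIII, which monocytes, macrophages and megakaryocytes make. All 6 sites lay before its start, at 6.66, 54.9, 56.0, 70.2, 71.5 and 80.6 kb, in a gap of 295 kb that ends at Ly86. The lists agreed to within 35 bp at each of them, and the AML widths ran from 651 to 750 bp. The 5 far sites thus lay together, 54.9 to 80.6 kb away, apart from the near one. The gene-free sequence nearest to F13a1 held 2 myeloid-only sites and 0 AML-only sites.

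Map4k4, a kinase of stress and inflammatory signalling, had shared intergenic sites on both sides. A pair lay 4.18 and 5.19 kb from its lower coordinate, and 4 lay 4.22, 11.7, 19.6 and 25.03 kb from its upper one, toward Il1r2, the gene of the decoy receptor for interleukin 1. Midpoints differed between the lists by 7 to 55.5 bp. Gnaq encodes a G protein subunit that couples receptors to phospholipase C. Its 5 sites lay before the start, at 3.76, 10.2, 21.8, 22.6 and 48.2 kb, with AML widths of 666 to 742 bp. Both genes had 0 AML-only sites and 1 myeloid-only site in the gene-free sequence nearest to them.

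Cebpb, which encodes a transcription factor of granulocyte and macrophage differentiation, had all 4 sites past its end, at 20.4, 33.4, 63.7 and 85.0 kb in a gap of 240 kb that reaches Ptpn1. Their AML widths were 690, 684, 863 and 833 bp, and the partners measured 699, 766, 997 and 1018 bp, so the far pair was wider in both lists. Cebpb also had 7 myeloid-only intergenic sites and 1 AML-only site, more of each kind than F13a1, Map4k4 or Gnaq. Tank, which encodes an adaptor of TRAF and NF-kB signalling, had its 4 sites at 46.1, 48.0, 86.4 and 94.6 kb before the start, in a gap of 615 kb. Tle3, a corepressor of the Groucho family that binds RUNX and other factors, had a pair before its start at 1.70 and 22.4 kb and a pair past its end at 5.96 and 8.80 kb. The nearest of these holds the Gm34157 window printed above.

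**Figure D4:**
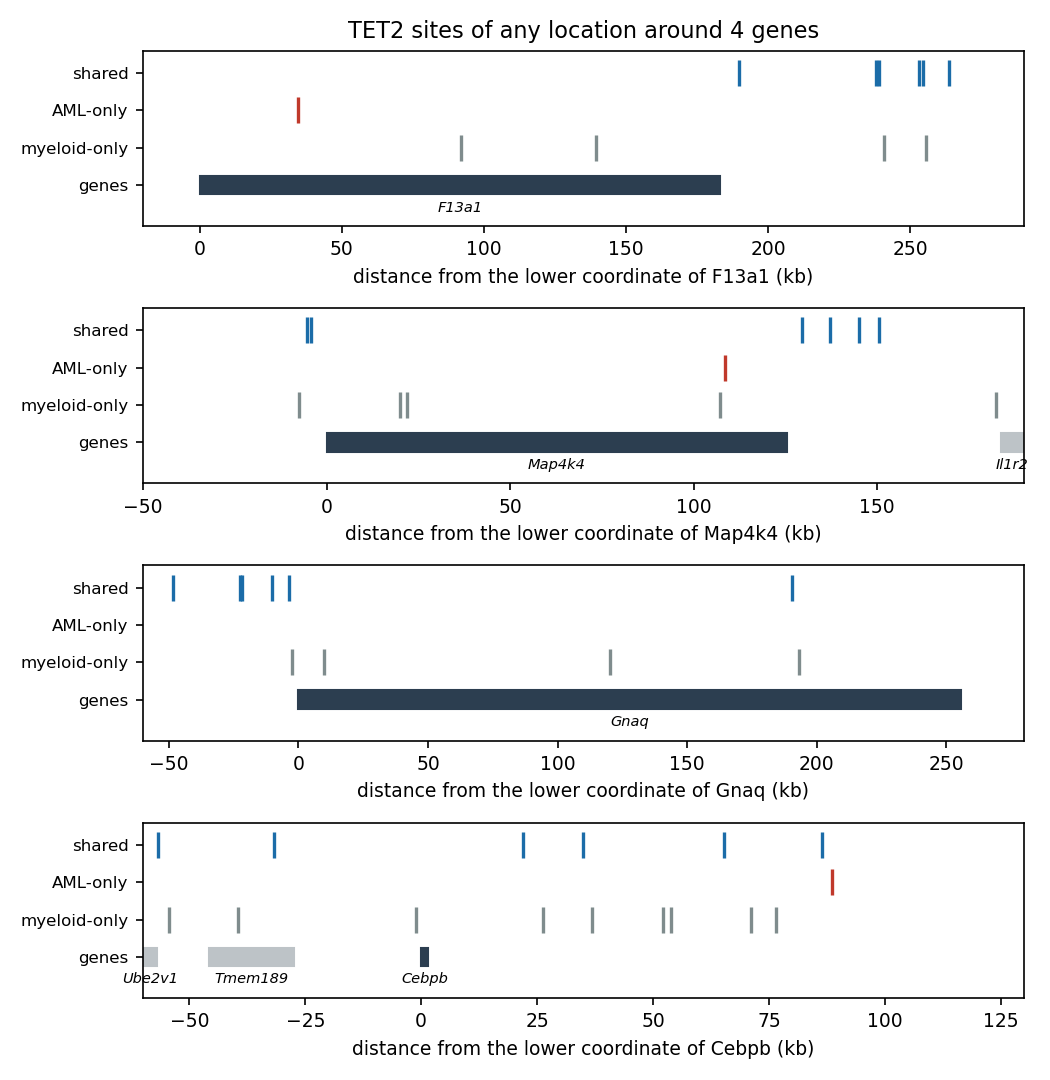
Maps of F13a1, Map4k4, Gnaq and Cebpb: the x axis is the distance in kb from the lower coordinate of each gene, ticks are midpoints of shared, AML-only and myeloid-only TET2 sites of any location, and bars are protein-coding genes. The 6 intergenic shared sites of F13a1 lie to the right of the gene, 6.66 to 80.6 kb from its start.

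Among the other genes with 4 sites, distances and sides varied. Dusp1 encodes a phosphatase that switches off MAP kinases, and its sites lay 1.14, 23.3, 24.4 and 25.6 kb before the start. Stx11 encodes a syntaxin needed for granule release in cytotoxic lymphocytes. It had 3 sites past its end at 9.87, 15.1 and 18.8 kb, the middle one with the B230208H11Rik window, and 1 before its start at 11.9 kb. P4ha2, a prolyl hydroxylase of collagen, had 1 site before its start at 9.04 kb and 3 past its end at 18.3, 24.4 and 42.7 kb. These 3 lie in the gap of 116 kb that ends at Csf2, the gene of the growth factor GM-CSF. Pag1, an adaptor of lipid rafts, had sites at 19.5, 32.2, 51.5 and 53.5 kb, and the lists placed the first 324.5 bp apart, where the myeloid partner was 1495 bp wide. Cnih3, which encodes an auxiliary protein of glutamate receptors, had its 4 before the start at 17.7 to 39.6 kb. Tmem170b had a pair on each side at 5.68 to 44.6 kb.

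The strand of the nearest gene was in the sequence tables for 1410 of the 1824 sites (77.3%). That is below the 80% set for such a check, so a comparison of sites before gene starts with sites past gene ends over the whole set is void. Sides are given for single genes only.

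Tet2 itself had 1 shared intergenic site, 38.2 kb before its start at chr3:133582971-133583622. The AML list gave it 651 bp and the myeloid list 858 bp, with midpoints 17.5 bp apart. It lies in a gap of 691 kb between Tet2 and Cxxc4, which encodes a CXXC domain protein that binds TET2. The gene-free sequence nearest to Tet2, counted on both sides of the gene, held 4 myeloid-only sites and 0 AML-only sites.

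The sites were then read against 14 lists of genes, with 322 of 331 entries on the chromosomes used. These lists and the rule for the sites were chosen with earlier results of these data known, so a list's count is not independent evidence. Over all lists 80 genes had at least 1 shared intergenic site. With all annotated genes, noncoding ones included, as neighbours, only 46 did. The median number of sites per gene was 0 over all genes and in each list except cytokine signalling, where it was 0.5. Values per Mb refer to the gene-free sequence nearest to the genes of a list, against 2.48 per Mb over all genes, and their intervals are exact Poisson 95% intervals. The value over all genes was not matched to a list for gap length or distance, with which density varied.

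Granule and neutrophil products had the highest density. Of 25 genes, 12 had a shared intergenic site (48.0%, against 7.01% of all genes), with 14 sites in 0.442 Mb (31.6 per Mb, 17.3 to 53.1). Chil3, a chitinase-like protein of neutrophils and macrophages, had 2 at 3.27 and 5.17 kb before its start, and Fpr1, the formyl peptide receptor, had 2 at 2.88 and 4.64 kb past its end. Mpo, which encodes myeloperoxidase, had 1 at 3.52 kb before the start, and Prtn3, proteinase 3 of primary granules, had 1 at 1.66 kb. S100a8 and S100a9, the subunits of calprotectin, had 1 each at 8.83 and 5.66 kb past the end, and Itgam, the integrin chain CD11b, had 1 at 3.34 kb before the start. Elane, Ctsg, Camp, Lcn2 and Mmp8 of the same list had no shared intergenic site. All 14 sites of the list lay within 10 kb of their gene. Room limits this distance: the median gene-free sequence per gene was 13.2 kb in the list and 16.0 kb over all genes. It was 2.94 kb at Mpo and 1.92 kb at Prtn3. The 0.442 Mb of the list also held 11 myeloid-only and 4 AML-only sites, against 3700 and 750 in 736 Mb over all genes. Unshared sites were thus denser at this list too, so the high density was not particular to shared sites. These differences were not tested.

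Chemokine and chemokine receptor genes followed, with 9 of 20 genes (45.0%) and 15 sites (16.4 per Mb, 9.16 to 27.0). Ccl2, a chemoattractant of monocytes, had 3 sites at 11.6 to 28.4 kb. Cxcr4, the receptor of CXCL12 that retains cells in the marrow, had 3 at 21.7, 22.7 and 34.1 kb before the start. Ccr1 and Ccr3 had 2 each, at 20.6 to 24.7 kb past the end. Ccl3, Ccl4, Ccl5 and Cxcl12 had no shared intergenic site. Many genes of this list lie in clusters, so sites of neighbouring members are not independent.

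Cytokine signalling genes had a shared intergenic site in 19 of 38 cases (50.0%), with 28 sites (12.8 per Mb, 8.52 to 18.5). Besides Dusp1 with 4, Kit, the receptor of stem cell factor, had 2, at 80.6 kb before its start and 74.1 kb past its end. Mcl1, an inhibitor of apoptosis, had 2 at 4.51 and 6.14 kb before the start, and Pim1, a kinase induced by cytokines, had 2 at 2.10 and 4.83 kb past the end. Dusp5, another MAP kinase phosphatase, had 2 at 49.4 and 64.3 kb. Socs1, Socs3 and Csf2rb had no shared intergenic site. Cell adhesion and surface receptor genes had sites in 7 of 25 cases (28.0%; 13 sites, 11.7 per Mb, 6.24 to 20.0), with 3 each at Cd47 and Cd93 and 2 each at Cd44 and Cd9.

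Myeloid transcription factor genes had a site in 14 of 40 cases (35.0%), with 25 sites (8.49 per Mb, 5.49 to 12.53). Besides Cebpb with 4, Runx1 had 3 at 28.2 to 54.8 kb and Fosl2, an AP-1 subunit, had 3 at 13.9 to 36.6 kb. Runx3 had 2 at 50.6 and 77.9 kb before the start, and Gfi1, a repressor needed in neutrophil formation, had 2 at 10.7 and 17.5 kb past the end. Cebpe, a factor of late granulocyte maturation, had 2 at 3.57 and 4.32 kb, both of which met 1 myeloid site of 1492 bp. Spi1, the gene of PU.1, had no shared intergenic site, and neither had Cebpa, Cebpd, Irf8, Cbfb or Fli1. This list also had 47 myeloid-only and 11 AML-only intergenic sites in 2.95 Mb, both denser than over all genes.

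Monocyte and macrophage genes had a site in 7 of 23 cases (30.4%; 6.33 per Mb, 2.55 to 13.04), each with 1. Among them were Ccr2, the receptor of CCL2, at 3.62 kb, Tlr4 at 5.57 kb and Tlr2 at 17.4 kb. Progenitor and leukemia genes had one in 5 of 29 cases (17.2%; 4.27 per Mb, 1.84 to 8.41), and that interval contained the value over all genes. Gata2, a factor of stem and progenitor cells, had 2 at 19.5 and 27.6 kb before the start, Hhex had 2 at 2.38 and 42.0 kb and Lmo2 had 2 at 11.9 and 51.2 kb. Flt3, Meis1, Hoxa9 and Npm1 had no shared intergenic site. Mast cell, basophil and eosinophil genes had one in 2 of 18 cases (11.1%; 3.41 per Mb, 0.413 to 12.3), namely Srgn and Siglecf. Of 21 genes that write, read or remove DNA methylation, 3 had one (14.3%; 3.39 per Mb, 0.700 to 9.92): Tet2, Dnmt1 at 1.81 kb before the start, and Mbd2. The intervals of these 2 lists also contained the value over all genes.

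Lists of other lineages and tissues followed. Igll1 was the 1 of 14 B cell genes with a shared intergenic site (7.14%; 1.67 per Mb, 0.0423 to 9.32), and Ncr1 was the 1 of 18 T and NK cell genes (5.56%; 1.20 per Mb, 0.0304 to 6.70). Both shares are close to the 7.01% of all genes, and both intervals contain 2.48 per Mb. None of 16 erythroid and megakaryocyte genes, 19 neuronal genes or 16 liver genes had one. By the approximate rule of 3, in which a count of 0 allows up to 3 counts, these lists allow shares of up to 18.8%, 15.8% and 18.8%. Those shares exceed the 7.01% of all genes, so a lower share was not detectable with lists of this size. Olfactory receptor genes had one in 7 of 1104 cases (0.634%; 0.285 per Mb, 0.115 to 0.588).

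**Figure D5:**
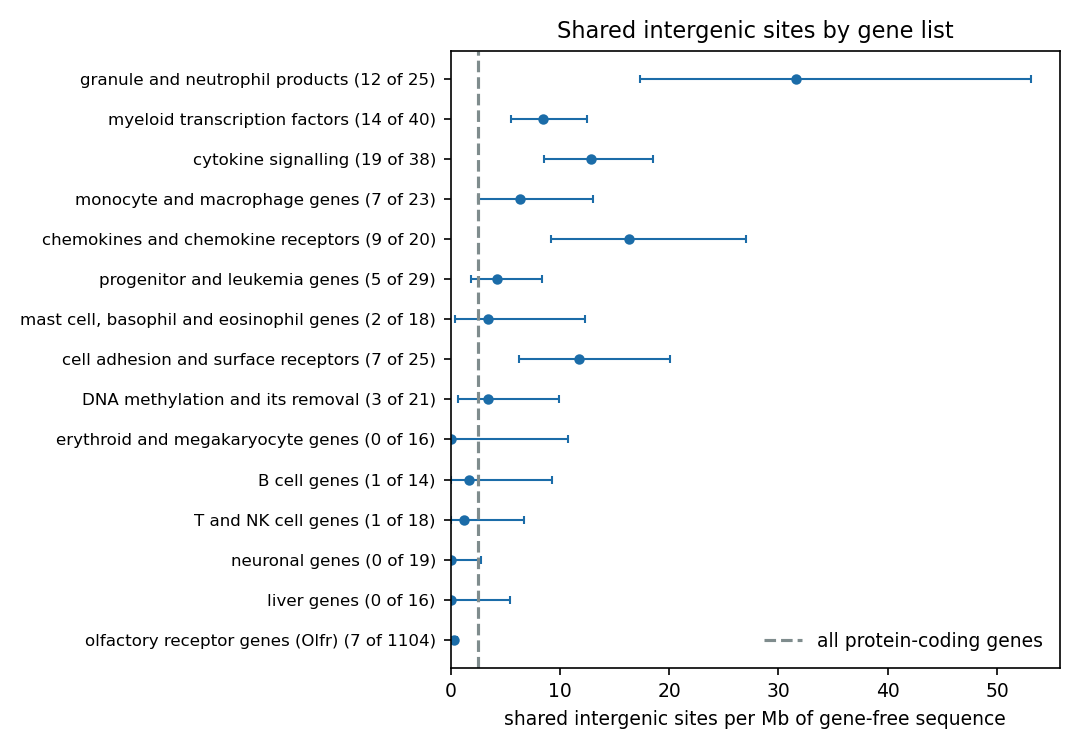
Shared intergenic sites per Mb of gene-free sequence nearest to the genes of each list (x axis), with exact Poisson 95% intervals; labels give the number of genes with a site of those measured, and the dashed line is the value over all protein-coding genes, 2.48 per Mb. Granule and neutrophil products lie at 31.6 per Mb and olfactory receptor genes at 0.285. AML-only and myeloid-only sites are not drawn.

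The ends of the nearest genes were then searched for TET2 sites. Of the 1449 nearest genes, 470 (32.4%, 30.0 to 34.9) had a myeloid site within 1 kb of a coordinate, against 19.3% of all genes. Among genes with a myeloid-only intergenic site and no shared one it was 27.7% (25.8 to 29.8), and among those with an AML-only site and no shared one 22.9% (19.2 to 26.9). Of the 291 genes with at least 2 shared intergenic sites, 41.9% (36.2 to 47.8) had one. In the AML list the corresponding values were 6.49% of the 1449 genes (5.27 to 7.88) and 2.83% of all genes. Among genes with a myeloid-only site and no shared one, the AML value was 4.82% (3.91 to 5.86). With an AML-only site and no shared one it was 3.96% (2.40 to 6.11). Both intervals overlap that of the 1449 genes. The differences were not tested.

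Some of the sites lay in noncoding genes. The midpoint lay inside an annotated lncRNA gene in 351 sites (19.2%, 17.5 to 21.1) and inside a pseudogene in 27 (1.48%). For AML-only and myeloid-only intergenic sites the lncRNA shares were 18.3% (15.6 to 21.2) and 17.9% (16.7 to 19.2), within the counting error of the shared sites. Of 919 miRNA genes, 22 (2.39%) lay within 10 kb of a shared intergenic site. With limits of 5 and 25 kb there were 11 and 63.

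MicroRNAs are short RNAs that repress messenger RNAs through their seed, bases 2 to 8. RefSeq gave 32 mature sequences for 20 of the 22 genes, each with a seed of its own. The following are shown because their genes are the best known of the 22, a choice made after the values were seen, with the seed in capitals.
mmu-miR-142a-5p: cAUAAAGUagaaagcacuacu
mmu-miR-142a-3p: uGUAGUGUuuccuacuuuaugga
mmu-miR-34a-5p: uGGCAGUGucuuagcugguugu
mmu-miR-193a-3p: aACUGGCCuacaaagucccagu
mmu-miR-192-5p: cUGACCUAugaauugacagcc
mmu-miR-194-5p: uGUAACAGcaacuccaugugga
Mir142, whose products are abundant in blood cells, lay 5.15 kb from the midpoint of a site near Tspoap1, at chr11:87751360-87752133. Mir34a, a target of p53, lay 7.86 kb from a site near Gpr157, and Mir193a lay 7.53 kb from a site near Rab11fip4. Mir192 and Mir194-2, which lie side by side, were 4.08 and 4.28 kb from a site near Atg2a. Mir6367 alone had 2 sites within 10 kb, both near Ifnar1, a receptor chain for type I interferons. Both met the same myeloid site of 1659 bp.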

How the data were processed

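TET2 ChIP-seq was made from 12 libraries of 2 cell types, 8 with the TET2 antibody and 4 input or IgG controls. The submitters' processing notes name mm10 and, as tools, Trimmomatic, Bowtie2 and MACS2. Tool versions, thresholds, pooling of replicates and the use of controls: not given in the sources used here. Deposited by the authors was 1 list of positions per cell type (chromosome, start and end, per the file headers), with no other value. Whether starts are counted from 0 or 1 is not stated, so positions are uncertain by 1 bp.

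Overlapping rows of a list were merged on chromosomes 1 to 19 (6777 AML and 18532 myeloid sites). Genes and sequences came from RefSeq tables of GRCm38.p6. Gene-free sequence was the sequence outside protein-coding genes, over 1 kb and at most 100 kb from a gene coordinate. Python 3.11.15, numpy 2.4.6, pandas 2.3.3 and scipy 1.17.1 were used, and the functions for overlap, location and gene-free sequence were tested on simulated data. Shares have exact Clopper-Pearson intervals, and densities exact Poisson intervals. The limits given for shares of lists with a count of 0 are approximate instead, by the rule of 3. Named were the 15 genes with most sites, up to 4 per gene list, the groups with most sites, the 5 widest sites, those at the limits, and miRNA genes within 10 kb. Where genes of a list tied, and beyond 4 of a list, those named were taken by known role after their values were seen. The list genes named as having no site were taken in the same way and are not all of them. The members and lists were chosen with earlier results of these data known. The planned motif scan of all sites was not run, as no genome was used here; the motifs were instead searched in promoter windows, a choice made after the data were seen.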

Additional observations from a re-analysis of the deposited data

Results flagged for a closer look

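Chromosome X, which the rule leaves out, also held sites of this kind. By the same criteria, 21 of 40 intergenic AML sites on chromosome X were shared with the myeloid list. They stand outside all counts given above, and nothing further was computed from them.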

How the results depend on the processing

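No paired analysis was possible because the lists hold no value for any library, and for the same reason no replicate could be left out. Of 68 values recomputed under other settings, 54 stayed within the 95% interval of the reported value or, for counts, within 1.5 times of it. The share of intergenic AML sites that were shared was 67.1% when midpoints had to lie within 200 bp and 68.7% with all annotated genes. The median distance was 21.5 kb for sites over 5 kb from a gene, 11.8 kb and 18.1 kb with far limits of 50 and 200 kb, and 8.54 kb with all annotated genes, as these settings change the zone itself. The share with a neighbour within 12500 bp was 21.4% with the 200 bp criterion, 19.6% with all annotated genes and 26.5% without merging. With neighbours within 5 and 25 kb it was 12.99% and 32.6%. With all annotated genes 46 list genes had a site in place of 80. That setting also left 1531 sites in place of 1824, and lost and reassigned sites were not separated. The miRNA genes near a site numbered 11 and 63 with limits of 5 and 25 kb. The motif searches in windows around all site midpoints were not run, as no genome was used. Site strength, knockout signal and depth were not analysed here.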
